A study of Mus musculus with 6 samples.

Results

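Chemokines and a small set of other secreted immune and growth signals were followed in mouse kidney RNA sequencing libraries. The genes were every symbol in the deposited table that begins with Ccl or Cxcl and a number, together with Cx3cl1, Il1a, Il1b, Il6, Il18, Tnf, Csf2, Areg, Hgf, Plau and Plaur. This gave 50 of 51804 gene symbols, 40 of them chemokine ligands or their pseudogenes and 10 of them other signals. Of the 50, 19 passed the filter on low counts and were tested, 24 had counts but fell under the filter, and 7 had no count in any library. Membership rested on gene names and not on measured values.

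The 6 libraries were made from mouse kidney, 3 of genotype Ccnb1f/f;Cdh16-Cre (labelled cko) and 3 of genotype Ccnb1f/f (labelled control). Both groups carried loxP-flanked Ccnb1 alleles and differ by label in Cre. Ccnb1 encodes cyclin B1, which drives entry into mitosis, and the Cdh16 promoter is active in renal tubular epithelium, so Cre is driven there and not in the vessels, stroma and leukocytes that whole kidney also holds. The labels give no age, sex or strain, and do not say that each library is a separate animal, so a p-value here reflects library-to-library spread that could be technical in part. The design addresses the part played by cyclin B1 in renal fibrosis linked to epithelial cells halted before mitosis.

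Each library held 16061435 to 21261226 estimated counts. A count of 0 allows up to 3 counts, which is 0.138 to 0.189 CPM (counts scaled to TMM-normalised library size), and this covers counting error only. Ccnb1 itself had 18, 15 and 11 counts in the cko libraries and 11, 17 and 7 in the control libraries, a fitted log2 difference of 0.34 (SE 0.46, 95% interval -0.71 to 1.39; edgeR adjusted p = 0.9995). The targeted gene was thus not lower in the libraries labelled cko, the interval spans 0, and every direction given is that of the labels. Of the kidney markers, the proximal tubule transporter gene Slc34a1 had 5306 to 6086 CPM in cko and 4545 to 6827 CPM in control libraries, and the thick limb gene Umod 4349 to 4898 CPM in cko and 4162 to 4305 CPM in control libraries. Kap, an androgen-regulated gene on the same proximal tubule list, had 0 counts in each cko library and 8727 to 16610 CPM in control libraries (edgeR adjusted p = 0.00105), the 1 marker gene called. On the first principal component control 2 stood by itself at -39.8, with the other 5 libraries between -2 and 13.6. Scores on the next component were 7.2 to 18.8 in cko libraries and -5.3, -4.6 and -29.7 in control libraries, control 3 being the most extreme.

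Chemokines are small secreted proteins that attract leukocytes by binding receptors coupled to G proteins. They are named by the spacing of their first cysteines: adjacent in the CC ligands (Ccl), parted by a single residue in the CXC ligands (Cxcl) and by several in Cx3cl1. Some, such as Cxcl12, are made steadily in healthy tissue and position resident cells, while others, such as Cxcl1, Ccl2 and Cxcl10, are induced by injury, cytokines or interferon. Senescent and arrested tubular cells are known to release several of the inducible ones together with interleukins, urokinase and growth factors.

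Promoters of 5 members are shown first, those of the 3 genes with the lowest unadjusted p (Cx3cl1, Cxcl12, Cxcl14) and those of 2 inducible chemokines, chosen after their values were seen (Cxcl1, Cxcl10). Each runs from 250 bases before to 50 bases after the RefSeq start on GRCm38.p6, 5′ to 3′ on the gene's strand. Capitals mark matches on either strand to the kappa-B consensus of NF-kappa-B, to an interferon-stimulated response element (ISRE) core, GAAA followed by any 2 bases and GAAA, to a TATA box TATAAA and to a GC box GGGCGG.
Cx3cl1 (chr8:94771930-94772229, plus strand): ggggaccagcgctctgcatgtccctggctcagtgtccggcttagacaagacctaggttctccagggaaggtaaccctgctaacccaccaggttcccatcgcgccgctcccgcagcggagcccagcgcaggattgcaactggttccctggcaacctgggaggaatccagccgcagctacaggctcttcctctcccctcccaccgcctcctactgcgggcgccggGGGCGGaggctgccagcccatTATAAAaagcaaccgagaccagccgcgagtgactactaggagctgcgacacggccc
Cxcl12 (chr6:117168285-117168584, plus strand): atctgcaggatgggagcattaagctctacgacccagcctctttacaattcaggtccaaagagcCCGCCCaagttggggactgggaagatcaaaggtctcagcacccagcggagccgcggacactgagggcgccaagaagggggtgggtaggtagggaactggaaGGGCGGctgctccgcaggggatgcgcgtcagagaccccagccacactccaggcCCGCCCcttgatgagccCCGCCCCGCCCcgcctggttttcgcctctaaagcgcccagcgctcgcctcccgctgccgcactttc
Cxcl14 (chr13:56296502-56296801, minus strand): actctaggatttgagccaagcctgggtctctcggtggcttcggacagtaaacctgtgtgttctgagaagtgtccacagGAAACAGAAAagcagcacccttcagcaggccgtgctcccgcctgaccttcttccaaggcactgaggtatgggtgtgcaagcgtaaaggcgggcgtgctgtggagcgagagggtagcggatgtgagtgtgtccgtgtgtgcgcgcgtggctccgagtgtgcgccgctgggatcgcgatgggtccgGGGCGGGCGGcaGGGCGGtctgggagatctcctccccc
Cxcl1 (chr5:90890995-90891294, plus strand): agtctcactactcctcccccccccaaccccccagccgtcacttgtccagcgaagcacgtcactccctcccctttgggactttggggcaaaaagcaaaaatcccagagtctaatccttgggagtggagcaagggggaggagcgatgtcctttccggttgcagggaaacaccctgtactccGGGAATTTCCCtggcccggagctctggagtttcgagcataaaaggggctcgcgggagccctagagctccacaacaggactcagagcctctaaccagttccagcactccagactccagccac
Cxcl10 (chr5:92348840-92349139, minus strand): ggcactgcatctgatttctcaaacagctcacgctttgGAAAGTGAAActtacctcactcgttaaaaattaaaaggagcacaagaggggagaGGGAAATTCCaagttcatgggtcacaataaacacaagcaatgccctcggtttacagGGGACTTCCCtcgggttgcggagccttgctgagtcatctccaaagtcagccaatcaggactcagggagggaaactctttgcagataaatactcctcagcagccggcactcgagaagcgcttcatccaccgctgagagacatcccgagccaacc
In these windows Cx3cl1 held 1 GC box and 1 TATA box, and Cxcl12 held 5 GC boxes, 2 of them overlapping. Cxcl14 held 3 GC boxes, 2 of them also overlapping, and 1 ISRE core. Cxcl1 held the kappa-B consensus on both strands at 1 overlapping place, and Cxcl10 held 2 kappa-B matches and 1 ISRE core. RefSeq promoters were at hand for 35 of the 50 members, as 42 windows. The kappa-B consensus was in 8 of these 42 windows and in 4.51% of all 32851 promoters, the ISRE core in 3 and in 3.44%, the TATA box in 15 and in 13.6%, and the GC box in 12 and in 35.7%. A match is a run of letters and not a measured binding site.

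Levels differed by orders of magnitude among the members, and a few genes held most of the counts. Plau, which encodes urokinase, the protease that activates plasminogen and is secreted by tubular epithelium, made up 53.6% of all counts of the 50 genes over the 6 libraries. Among the chemokines alone, Cxcl12 made up 39.1% and the 4 genes Cxcl12, Cx3cl1, Cxcl16 and Ccl28 together 84.1%. On the per-length scale of the deposited FPKM values, averaged over 6 libraries, Plau stood at 167 FPKM, Cxcl12 at 52.7, Cxcl16 at 21.7, Cx3cl1 at 18.7 and Ccl28 at 10.8. The next in order were Cxcl14 at 7.87 FPKM, Ccl27a at 7.41 and Ccl25 at 6.67, whose values overlapped among libraries. The inducible chemokines Cxcl10 and Cxcl1 followed at 5.36 and 5.04 FPKM, also with ranges that overlapped their neighbours in this order.

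**Figure D1:**
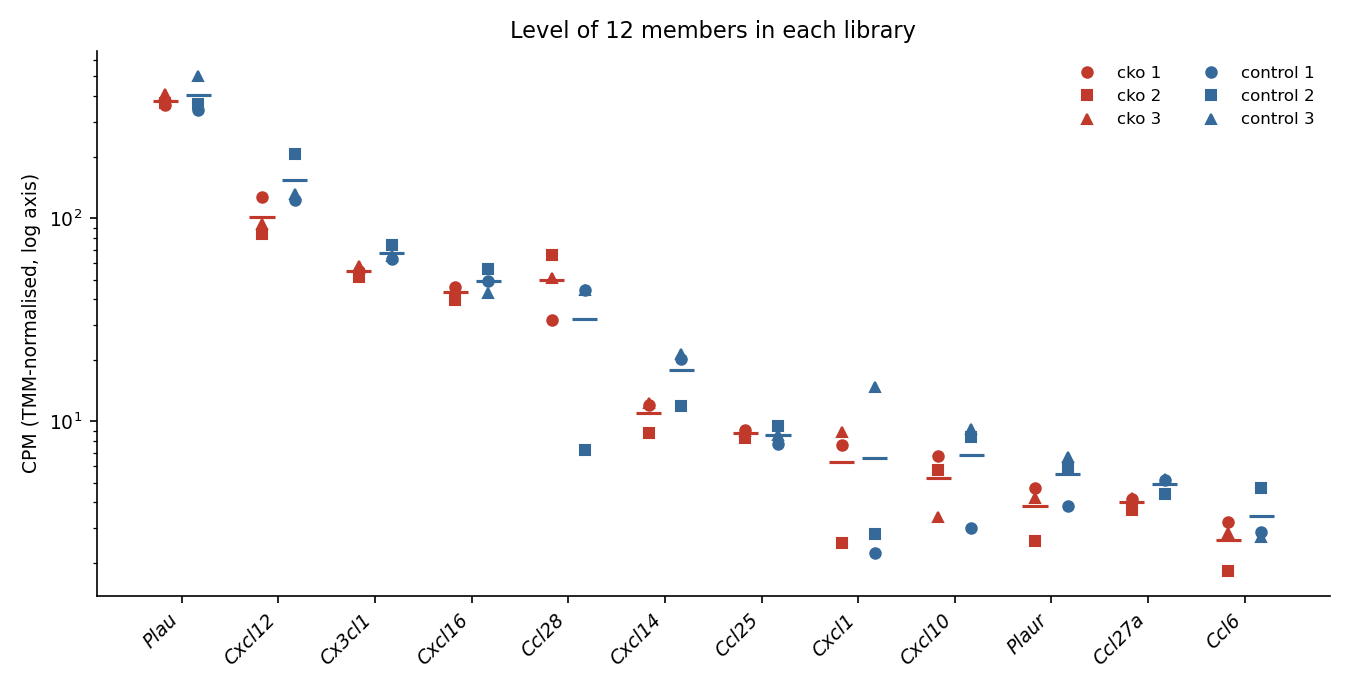
CPM (log axis) of the 12 members named with a value in every library, ordered by mean level; shapes mark the library number, red points are the 3 cko libraries, blue points the 3 control libraries, and bars the group means. Cx3cl1 and Ccl27a are the members whose groups do not overlap, and Ccl28 in control 2 (7.25 CPM) and Cxcl1 in control 3 (14.8 CPM) stand away from the other control libraries.

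None of the 19 tested members passed the threshold between cko and control libraries (edgeR quasi-likelihood test, Benjamini-Hochberg adjusted p under 0.05 over 15017 genes; every member at adjusted p = 0.9995). Over all genes tested the same rule called 0.0133%, that is 2 genes, neither of them a member. By sign, 13 members were lower and 6 higher in cko libraries, with a median log2 fold change of -0.19, where the median over all genes was -0.005 and 51% of genes were lower and 49% higher. An unadjusted p under 0.05 was reached by 3 members, Cx3cl1, Cxcl12 and Cxcl14, each lower in cko libraries, against 3.23% of all genes in either direction and 1.88% in that direction. That count was 0 without cko 2, 1 without control 2 and 5 without control 1, and between 2 and 4 without each of the other libraries. DESeq2 and limma on log2(FPKM + 1) called no member either. The members were chosen with earlier results of these data known, so these counts describe the list and are not a test of it.

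Groups did not overlap for 2 of the 19 tested members, Cx3cl1 and Ccl27a, both lower in cko, against 8.18% of all genes tested in either direction and 4.08% lower in cko. The count was 5 without cko 1, 6 without control 1, 4 without control 2 and 4 without control 3. It was 3 without cko 2 or cko 3. Fewer libraries overlap less often, and the share over all genes was not counted with a library left out. These counts therefore cannot be set against the 8.18% or 4.08%. By library, control 3 held the highest value of 8 tested members and control 2 of 7, while cko 2 held the lowest value of 8 and control 1 of 6.

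**Figure D2:**
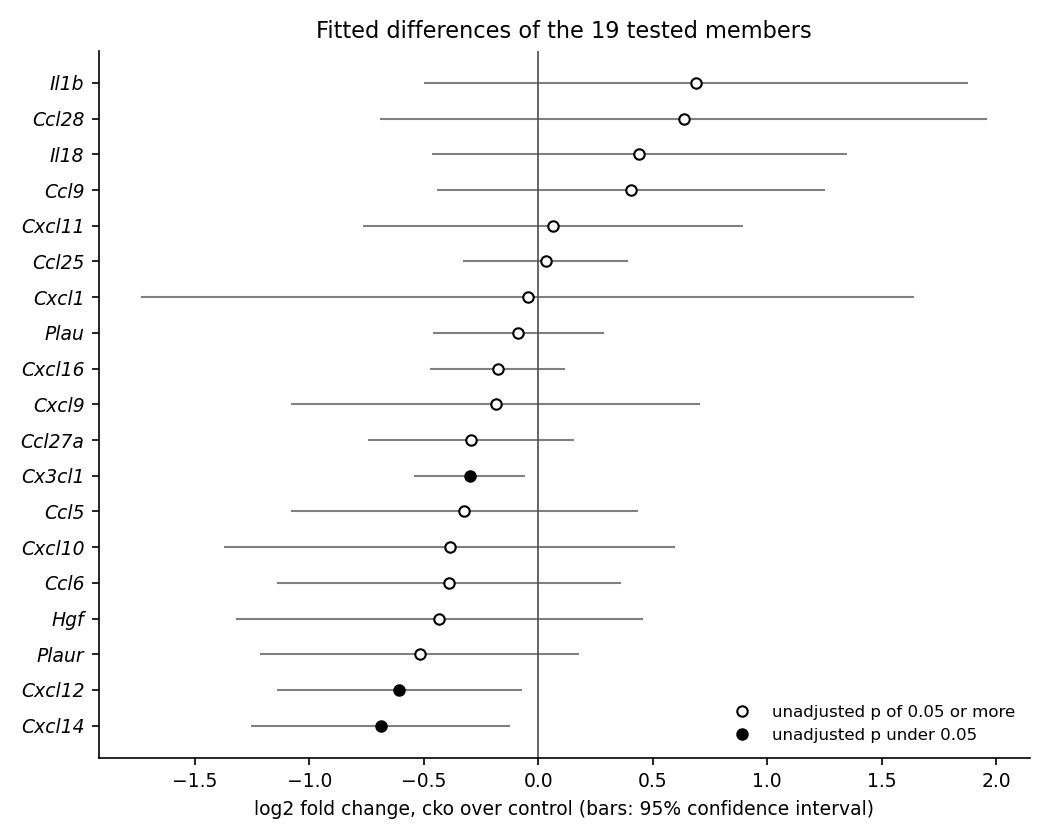
Fitted log2 fold change of cko over control for each of the 19 tested members, with its 95% confidence interval; filled points have an unadjusted p under 0.05. The 3 filled points, Cxcl14, Cxcl12 and Cx3cl1, lie below 0, the interval of Cxcl1 is the widest among the members, and no member has an adjusted p under 0.9995.

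Cx3cl1, fractalkine, is anchored in the membrane of endothelial and epithelial cells by a mucin stalk and is shed as a soluble attractant for cells with Cx3cr1. It had 55.1, 51.5 and 58.0 CPM in the cko libraries, against 63.1, 74.2 and 65.2 CPM in the control libraries. All 3 cko values lay below all 3 control values. The means were 54.9 ± 3.26 CPM in cko and 67.5 ± 5.93 CPM in control libraries (SD, n = 3 each). On the log2 scale this was a fold change of -0.30 (SE 0.11, 95% interval -0.54 to -0.06; edgeR unadjusted p = 0.0218, adjusted p = 0.9995). An exact permutation of the 6 libraries, two-sided, gave p = 0.1, which is the least that 3 against 3 can reach. Without cko 2 or control 2 the edgeR unadjusted p was 0.0844 and 0.0681. Nearly all of its counts, 99.8%, belonged to 1 coding transcript, Cx3cl1-201.

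Cxcl12, the ligand of Cxcr4 and Ackr3 that retains and recruits leukocytes and guides vessel growth, is made by stromal, endothelial and some epithelial cells. It had 128, 83.5 and 93.4 CPM in the cko libraries, against 123, 208 and 132 CPM in the control libraries. The groups overlapped in cko 1 and control 1, and control 2 stood highest. The means were 102 ± 23.2 CPM in cko and 154 ± 46.8 CPM in control libraries (SD, n = 3 each), a log2 fold change of -0.61 (SE 0.23, 95% confidence interval -1.14 to -0.07; edgeR unadjusted p = 0.0315, adjusted p = 0.9995). Without control 2 the fold change was -0.33 (edgeR unadjusted p = 0.105), and without cko 2 or cko 3 the unadjusted p was 0.103 and 0.0884.

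Of the 4 Cxcl12 transcripts, 2 coding forms held most of the counts in every library. Cxcl12-202 took 48.8%, 51.1% and 47.5% of the gene's counts in cko libraries and 53.1%, 43.9% and 48.8% in control libraries. Cxcl12-203 took 42.5%, 39.6% and 42.4% in cko libraries and 37.4%, 38.8% and 40.9% in control libraries. The third coding transcript, Cxcl12-201, was at 7.37% to 8.17% in cko libraries and at 7.75%, 12% and 8.27% in control libraries. The retained-intron transcript Cxcl12-204 was at 1.13% to 2.11% in cko libraries and at 1.74%, 5.24% and 2.01% in control libraries, so control 2 held the highest share of both minor forms. Division of reads among transcripts of 1 gene is an estimate by the authors' program.

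**Figure D3:**
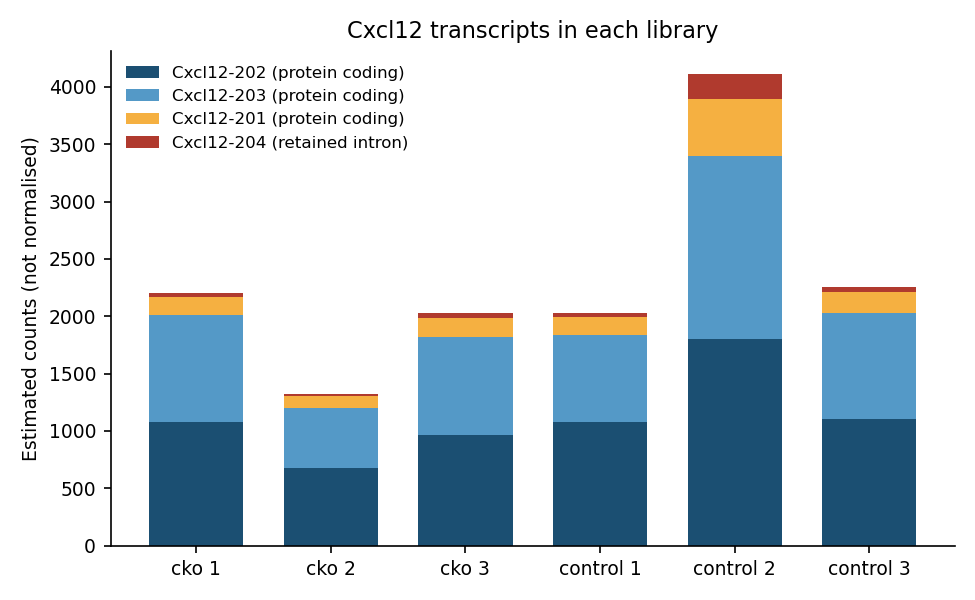
Estimated counts of the 4 annotated Cxcl12 transcripts, stacked, in each of the 3 cko and 3 control libraries, without normalization for depth. Control 2 is tallest, and its retained-intron share of 5.24% exceeds that of the other 5 libraries.

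Cxcl14, a chemokine made steadily by epithelia and fibroblasts whose receptor is debated, had 12.1, 8.77 and 12.3 CPM in the cko libraries, against 20.2, 11.9 and 21.4 CPM in the control libraries. The overlap came from control 2 alone, which lay among the cko values. The means were 11.1 ± 1.98 CPM in cko and 17.9 ± 5.18 CPM in control libraries (SD, n = 3 each), a log2 fold change of -0.69 (SE 0.25, 95% interval -1.25 to -0.12; edgeR unadjusted p = 0.0230, adjusted p = 0.9995). Without control 2 it was -0.91 (edgeR adjusted p = 0.695), and without cko 2, control 1 or control 3 the unadjusted p was 0.0742, 0.0732 and 0.0796. Control 2 was the highest library for Cxcl12 and the lowest control for Cxcl14.

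Stromal and vascular markers were read beside these 3 genes, which such cells are known to make. Of the 8 fibroblast and pericyte markers, 7 were tested, 6 were lower and 1 higher in cko libraries and none was called. Dcn, Lum, Col1a1 and Pdgfrb, 4 of the 7, had an edgeR unadjusted p under 0.05, each lower in cko. Dcn, Lum and Col1a1 had groups without overlap (3 of 7). Over all genes tested, 51% were lower in cko, 1.88% lower with such a p and 4.08% lower without overlap. The summed level of the list ranged from 111 to 157 CPM in cko and from 139 to 176 CPM in control libraries. All 6 endothelial markers had fold changes below 0 without a call, against 51% of all genes. None of the 6 had an edgeR unadjusted p under 0.05 or groups without overlap. Their sums were 262 to 335 CPM in cko and 284 to 327 CPM in control libraries. Fewer cells of a type and less RNA per cell cannot be told apart in whole kidney, and the part of either in the chemokine values was not tested.

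Cxcl16 and Plau, also abundant members, had groups that overlapped. Cxcl16, a membrane-bound chemokine for Cxcr6 that also takes up oxidised lipid, had 45.8, 39.8 and 45.3 CPM in cko and 49.2, 56.2 and 42.7 CPM in control libraries. The fitted difference was -0.18 in log2 (SE 0.13, interval -0.47 to 0.12; edgeR adjusted p = 0.9995), -0.074 without control 2 and -0.27 without control 3. On the opposite strand, 552 of its exonic bases, 18.3%, overlap Zmynd15, and the sources do not say whether counting used strand. Plau had 360, 368 and 412 CPM in cko and 340, 367 and 505 CPM in control libraries. Control 3 alone lay above the cko values. Plau differed by -0.09 in log2 (SE 0.16, interval -0.46 to 0.29), and 0.11 without control 3.

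Plaur, which encodes the urokinase receptor, had 4.69, 2.59 and 4.20 CPM in cko and 3.82, 5.98 and 6.66 CPM in control libraries. The log2 difference was -0.52 (SE 0.30, 95% interval -1.21 to 0.18), with groups that overlapped at control 1. Without cko 2 the Plaur difference was -0.31, and without control 1 it was -0.72 (edgeR unadjusted p = 0.0459).

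The mucosal and thymic CC chemokines differed in level, with Ccl28 among the abundant members and Ccl27a and Ccl25 lower. Ccl28, made by mucosal and secretory epithelia for cells with Ccr10 or Ccr3, had 31.8, 66.2 and 51.0 CPM in cko and 44.6, 7.25 and 44.2 CPM in control libraries. Control 2 was far below every other library, and the highest library held 9.13 times its level. The fitted log2 difference was 0.64 (SE 0.58, 95% interval -0.69 to 1.96; edgeR adjusted p = 0.9995), 0.16 without control 2 and 0.37 without cko 2.

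Ccl27a, the skin-homing ligand of Ccr10, had 4.17, 3.66 and 4.20 CPM in cko and 5.16, 4.41 and 5.20 CPM in control libraries. Its groups did not overlap, yet its log2 fold change of -0.29 (SE 0.20, 95% confidence interval -0.74 to 0.16; edgeR unadjusted p = 0.173) did not reach even an unadjusted call. The symbol joins 3 gene IDs, 2 of them on scaffolds, and all but 1 of its counts belonged to the chromosome 4 copy. The most abundant Ccl27a transcript by count, Ccl27a-212, is annotated as a retained intron and took 28.8%. Ccl27a-211 and Ccl27a-210, at 15.8% and 11.1%, are annotated likewise, and the largest coding form, Ccl27a-206, took 22.8%. Ccl25, the thymic and gut ligand of Ccr9, had 9.10, 8.26 and 8.99 CPM in cko and 7.71, 9.48 and 8.59 CPM in control libraries, with a log2 fold change of 0.03 (SE 0.16, interval -0.33 to 0.39). Ccl25 varied least of the 19 across libraries, with a highest value 1.23 times its lowest. Its largest transcript share, 35.5%, was also a retained intron. Ccl25-209, at 17.2%, was another, and the largest coding form, Ccl25-201, took 28.7%.

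The inducible CXC chemokines spread widely within both groups. Cxcl1, a neutrophil attractant that acts on Cxcr2, had 7.65, 2.52 and 8.86 CPM in cko and 2.25, 2.79 and 14.8 CPM in control libraries. Of the gene's counts, 51.6% were assigned to Cxcl1-202, annotated as a retained intron. For Cxcl1 as a whole, each group held both high and low libraries, control 3 highest of all. Its fitted log2 difference was -0.05 (SE 0.73, 95% interval -1.73 to 1.64), and without control 3 it was 1.34 (edgeR unadjusted p = 0.0322, adjusted p = 0.999). Control 3 was also the library in which the 11 immediate early and heat shock genes summed to 3188 CPM, against 354 to 578 CPM in cko libraries and 248 and 409 CPM in the other controls. The NF-kappa-B response genes summed to 178 CPM in control 3, against 112.5 to 145 CPM in cko and 127 and 145 CPM in the other control libraries. The part of either list in the Cxcl1 values was not tested.

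Cxcl9, Cxcl10 and Cxcl11, interferon-induced ligands of Cxcr3 on activated T cells, lie side by side within 44 kb of chromosome 5. Cxcl10 had 6.72, 5.74 and 3.37 CPM in cko and 2.97, 8.36 and 9.23 CPM in control libraries, a log2 fold change of -0.39 (SE 0.43, 95% confidence interval -1.37 to 0.60). Without 1 library the Cxcl10 difference was -0.60 (cko 1), -0.14 (cko 3), -0.74 (control 1, edgeR unadjusted p = 0.0450), -0.22 (control 2) and -0.12 (control 3). Cxcl9 ranged from 1.94 to 3.88 CPM in cko and from 1.76 to 3.90 CPM in control libraries, and Cxcl11 from 0.985 to 1.38 CPM in cko and from 0.882 to 1.47 CPM in control libraries. Summed over the 3 genes, control 1 was lowest at 5.65 CPM and control 2 and control 3 highest at 13.7 CPM each, with cko libraries between at 6.37 to 11.6 CPM. The 11 interferon response genes summed to 160 to 228 CPM in cko and 156, 427 and 159 CPM in control libraries. Control 2 was thus high for both sums, and control 3 for the chemokine sum only, to which Cxcl10 gave 9.23 CPM. Cxcl11 had its lowest value in control 3, at 0.882 CPM. Cxcl11 shares 1582 exonic bases, 41.7%, with a pseudogene on the opposite strand. Of its own counts, 48.7% were assigned to Cxcl11-202, a transcript annotated as a polymorphic pseudogene.

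**Figure D4:**
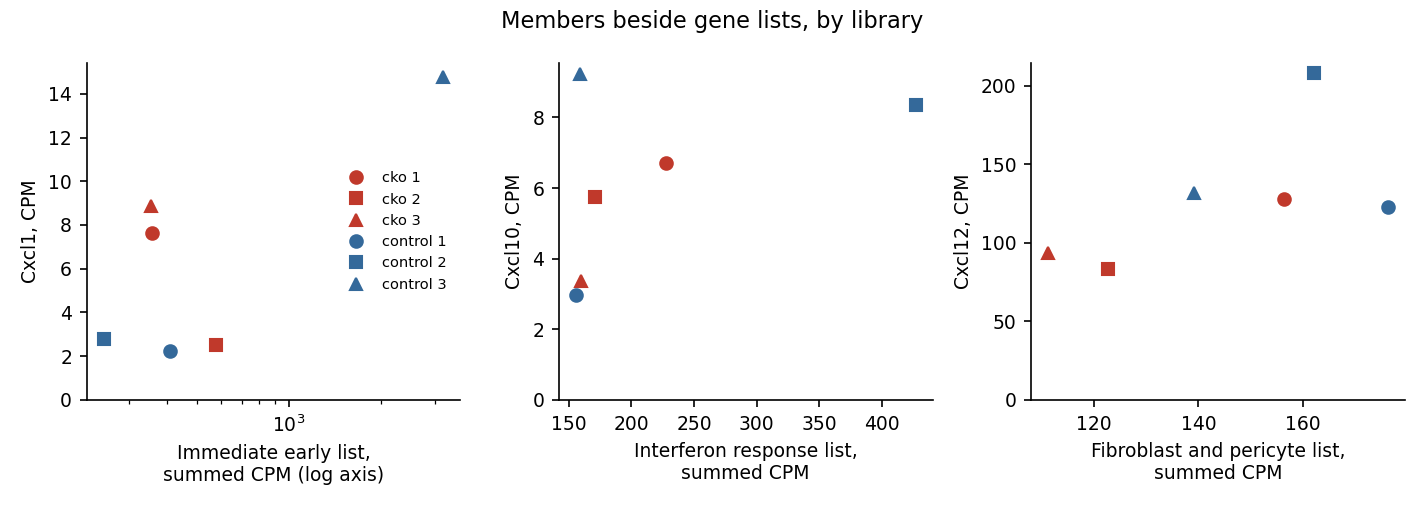
Cxcl1, Cxcl10 and Cxcl12 (CPM, vertical axes) against the summed CPM of the immediate early (log axis), interferon response and fibroblast lists in the same libraries; red cko, blue control. Control 3 lies highest for Cxcl1 and the immediate early list (3188 CPM), control 3 for Cxcl10, and control 2 for Cxcl12 and the interferon list (427 CPM).

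The CC chemokines of leukocytes were scarce. Ccl6, made by myeloid cells in mice, had 3.19, 1.83 and 2.81 CPM in cko and 2.85, 4.71 and 2.69 CPM in control libraries, a log2 fold change of -0.39 (SE 0.33, 95% confidence interval -1.14 to 0.36). The Ccl6 difference was -0.081 without control 2, which held its highest value, and -0.20 without cko 2. Ccl5, made by T cells and macrophages, ranged from 1.20 to 1.89 CPM in cko and from 1.52 to 2.45 CPM in control libraries. Ccl9, its myeloid neighbour on chromosome 11, ranged from 0.753 to 1.07 CPM in cko and from 0.546 to 0.862 CPM in control libraries. Neither of the 2 passed, with log2 fold changes of -0.32 (SE 0.33) for Ccl5 and 0.41 (SE 0.37) for Ccl9. Of 12 macrophage and monocyte markers tested, 11 had fold changes above 0 in cko libraries without a call, against 49% of all genes. An edgeR unadjusted p under 0.05 was reached by 1 of the 12, against 3.23% of all genes. Groups did not overlap for 2 of the 12, against 8.18% of all genes. The list summed to 171.5 to 234 CPM in cko and 160 to 167 CPM in control libraries. The part of these markers in the chemokine values was not tested. Neutrophil markers were near the floor, at 0.883 to 2.03 CPM in cko and 1.28 to 3.14 CPM in control libraries for all 6 genes together.

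Of the interleukins and growth factors, Il1b, Il18 and Hgf passed the filter and were tested. Il1b, the inflammasome-processed cytokine of myeloid cells, ranged from 1.39 to 3.03 CPM in cko and from 0.659 to 2.16 CPM in control libraries, a log2 fold change of 0.69 (SE 0.52, 95% confidence interval -0.50 to 1.88). Il18, which is processed by the same complex and is also made by tubular epithelium, had 1.74, 1.70 and 1.48 CPM in cko and 1.88, 0.760 and 0.993 CPM in control libraries, a log2 fold change of 0.44 (SE 0.39, interval -0.46 to 1.35). Both were higher in cko on average and both groups overlapped. Hgf, the stromal growth factor that acts on Met in epithelium, ranged from 1.26 to 2.72 CPM in cko and from 2.08 to 4.03 CPM in control libraries, a log2 fold change of -0.43 (SE 0.39, interval -1.32 to 0.46).

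The classic secreted signals of inflammation were at or near the limit of detection. Il6 had 3 counts over the 3 cko libraries and 2 over the 3 control libraries, Tnf 12 and 8, Il1a 4 and 6, Areg, an Egfr ligand, 4 and 5, and Csf2 0 and 2. Ccl2, the main attractant of Ccr2 monocytes, had 14, 3 and 5 counts in cko and 5, 7 and 18 in control libraries. Differences in these genes were not detectable at this depth. The 31 members under the filter summed to 335 counts over all 6 libraries, and none had more than 18 counts in 1 library. No count was found for Cxcl3, Cxcl5, Cxcl15, Ccl21b, Ccl26, Ccl27b or Ccl19-ps1, which allows up to 0.189 CPM in the shallowest library. Ccl19, Ccl21 and Ccl27 genes have near-identical copies on chromosome 4 among which reads can be lost or divided, so their low values are uncertain.

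Several members lie in gene clusters. The 6 genes of the Ccl2 cluster lie within 270 kb of chromosome 11 (82035571 to 82305690, GRCm38), and none passed the filter. They summed to 43, 23 and 18 counts in cko and 31, 20 and 42 in control libraries. The 5 genes of the Ccl5 cluster, on chromosome 11 from 83525778 to 83664683, summed to 5.62, 5.74 and 5.26 CPM in cko and 5.40, 7.50 and 6.25 CPM in control libraries. In the Cxcl1 cluster on chromosome 5 (90759360 to 90905938), 709 of 716 counts belonged to Cxcl1 itself and the rest to Cxcl2. Cx3cl1 lies between Ccl22 and Ccl17 within 66 kb of chromosome 8 (94745590 to 94812036). Those neighbours had 14 and 7 counts over the 6 libraries, against 6644 for Cx3cl1.

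Summed over the 40 chemokine ligands, the libraries held 314, 281 and 295 CPM in cko and 329, 398 and 357 CPM in control kidneys. Without Cxcl12 the sums overlapped, at 186, 198 and 202 CPM in cko and 206, 189 and 225 CPM in control libraries. No test was made of a sum over chosen members.

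Receptors and binding proteins of these signals were read as a list of 38 genes, of which 26 were tested and none passed (edgeR quasi-likelihood test; DESeq2 and limma called none). By sign 12 were higher and 14 lower in cko libraries, around a median of -0.09 in log2, and 2 had an unadjusted p under 0.05, against 3.23% of all genes. These were Egfr, the receptor of Areg, at 82.5, 64.0 and 60.4 CPM in cko and 75.7, 97.5 and 90.5 CPM in control libraries, and Ccr10. Ccr10, the receptor of Ccl27a and Ccl28, had 0.695, 0.505 and 0.323 CPM in cko and 0.789, 1.01 and 1.29 CPM in control libraries. Ccr10 differed by -1.03 in log2 (SE 0.43, 95% interval -2.01 to -0.05; edgeR unadjusted p = 0.0423, adjusted p = 0.9995), without overlap between groups, and Egfr by -0.35 (SE 0.15, interval -0.70 to -0.004), with cko 1 above control 1.

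The most abundant of the list were Il6st, the signalling chain shared by the Il6 family, and Met, the receptor of Hgf. Il6st had 230, 261 and 243 CPM in cko and 283, 278 and 287 CPM in control libraries, without overlap, and a log2 fold change of -0.21 (SE 0.10, 95% confidence interval -0.44 to 0.02; edgeR unadjusted p = 0.0665). Met ranged from 169 to 255 CPM in cko and from 217 to 239 CPM in control libraries. Ackr3, the scavenging receptor of Cxcl12, had 54.4, 61.4 and 94.6 CPM in cko and 81.7, 70.0 and 55.6 CPM in control libraries, and Tnfrsf1a, the main receptor of Tnf, 53.7, 44.98 and 53.0 CPM in cko and 50.02, 53.3 and 43.0 CPM in control libraries. Among the interleukin 1 receptor chains, Il1r1 differed by -0.14 in log2 (SE 0.16) and Il1rap by -0.22 (SE 0.18). Groups of 4 receptors did not overlap, Il6st and Ccr10 lower and Csf2rb and Ccr9 higher in cko libraries, against 8.18% of all genes. For Ccr9 this holds on the rounded counts that were fitted; on unrounded counts cko 2 had 0.548 CPM and control 2 had 0.557 CPM. Csf2rb and Ccr9 are named here after their values were seen.

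**Figure D5:**
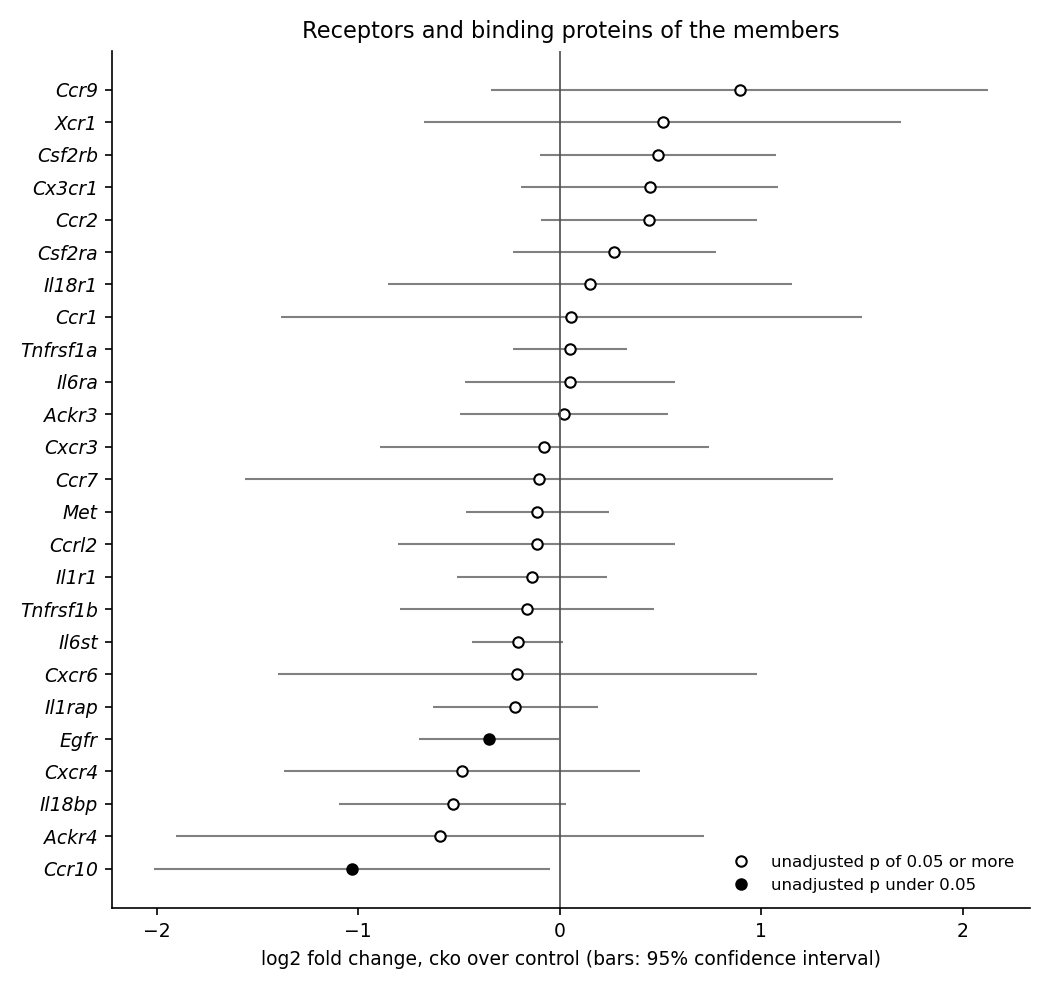
Fitted log2 fold change of cko over control for 25 of the tested receptors and binding proteins, with 95% confidence intervals; filled points have an unadjusted p under 0.05. Ccr10 (-1.03) and Egfr (-0.35) are the 2 filled points, and the intervals of the open points include 0.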

How the data were processed

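RNA of 6 mouse kidney libraries was sequenced; sample titles gave groups and replicate numbers. The authors deposited estimated counts per transcript, not normalized, beside FPKM values, per the file headers. Tools listed in the submitters' processing notes, without order or purpose, are HISAT2 2.0.1, Cuffdiff 2.2.1, cutadapt 1.9.1, FastQC 0.10.1 and bcl2fastq 2.17.1.14, with GRCm38 as build; none is tied to the counts. The extraction text mentions cultured cells as well as kidney, and the tissue label says kidney.

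Each symbol's estimated counts were added up (97 symbols have more than 1 gene ID) and rounded before testing. The main test was edgeR 4.0.16 (R 4.3.3), quasi-likelihood, two-sided, with TMM scaling, the package's filter at a minimum count of 10, no covariate, and p-values adjusted by Benjamini-Hochberg across 15017 genes. CPM values are TMM-normalised, and SE is the log2 fold change over the square root of F. All 56 member gene IDs were in GENCODE M21, the source of transcript names and exon overlaps. The tests were checked on simulated counts.

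Members given library by library were those called, with an unadjusted p under 0.05, without overlap between groups, or among the 12 of highest mean CPM; 8 receptors were named by low p, then abundance. Members and gene lists were chosen with earlier results of these data known. Alternatives were DESeq2 1.42.0, median-of-ratios scaling, no filter, the replicate number as a block, limma 3.58.1 on log2(FPKM + 1) or log2(FPKM + 0.1) with other FPKM filters, chemokine ligands alone, and each library left out. The value of 1 tested receptor is not reported here; the counts over the receptor list include it.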

Additional observations from a re-analysis of the deposited data

How the results depend on the processing

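No alternative called a member or a receptor. The median log2 fold change of the tested members stayed below 0 throughout, from -0.35 without control 1 to -0.07 without control 3 among fits without 1 library, and at -0.059 in limma without a filter. With no filter, members of very few counts enter: 43 were then fitted, of which 15 were higher in cko libraries in DESeq2 and in edgeR and 14 in limma, and 4, 4 and 5 had groups without overlap. In limma with FPKM of at least 5, 2 of 10 were higher. Without 1 library, 5 to 8 members were higher and 3 to 6 did not overlap. The matching shares over all genes were not counted in these settings, so the counts have no reference level.

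Cxcl1 turned to 0.23 with the replicate block, and to 0.15 in limma on log2(FPKM + 1), with or without a filter, and 0.21 on log2(FPKM + 0.1); without 1 library it ran from -0.45 to 1.34. Ccl25 turned to -0.071 in limma on log2(FPKM + 1), at each filter, to -0.081 on log2(FPKM + 0.1), and ran from -0.039 to 0.11 without 1 library. Plau ran from -0.20 to 0.11 without 1 library. The causes were not tested. The other 9 members named with each library's value kept their direction in every alternative that tested them. Median-of-ratios scaling changed none of the member counts.

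Deviations of same-numbered libraries of the 2 groups correlated at 0.104, -0.111 and 0.113 across genes. For libraries of unlike number the correlations ran from -0.182 to 0.091. With 3 libraries per group these values cannot decide whether the numbers pair the libraries. With the replicate block no member was called, and the median was -0.19. Depth limits the 31 members under the filter, which the main test left out. Those with counts entered the fits with no filter, where no member was called.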

Other observations

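The 12 receptors and binding proteins under the filter were read as counts. Il1rn, the natural antagonist of interleukin 1, had 8 counts over the 3 cko libraries (3, 1 and 4) and 0 over the 3 control libraries. Ccr6, the receptor of Ccl20, had 5 (2, 2 and 1) and 0. As a count of 0 in a library allows up to 3 counts, neither shows absence in control libraries. Ccr3 had 3 and 1 counts, Ccr4 4 and 1, Ccr8 1 and 2, Cxcr5 8 and 5, and Il1r2 5 and 2. Cxcr2, the receptor of Cxcl1 on neutrophils, had 9 and 13 counts, Ackr2, which scavenges inflammatory CC chemokines, 17 and 24, and Il18rap 30 and 44. Cxcr1, and Ackr1, a chemokine binder of venules and red cells, had no count in any library. The main test left these genes out, and no fit without the filter called any of them.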
